A study of Mus musculus with 2 samples.

Results

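Genes that make, bind, degrade or sense retinoic acid were followed in linc1557 knockdown and control mouse embryonic stem cells. The group comprised 10 genes of the 46983 in the deposited table, found through the symbols that the GENCODE annotation of GRCm38 gives to their Ensembl identifiers. They were chosen by their role and with earlier results of these data known, Cyp26a1 among them as a gene already seen to differ, so the values below are a description. The 2 RNA sequencing libraries were made from 46C cells, an embryonic stem cell line with a fluorescent reporter at the Sox1 locus, grown over feeders in medium that held serum and leukaemia inhibitory factor (LIF). The knockdown library came from cells carrying a hairpin directed at linc1557, a long noncoding RNA, in the pLKO.1 vector, and the control library from cells carrying a control hairpin. Infected cells had been selected with puromycin and picked as clones, and the sources used here do not say how many clones or cultures went into a library. There was 1 library per group, with 26693282 counts in knockdown cells and 23146210 in control cells, so no replicate check, test or p-value was possible. All intervals are 95% and cover counting error only. No row of the deposited values could be tied to linc1557, whose level was not analysed here, so the groups stand as labelled.

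Retinoic acid is made from retinol in a pair of oxidations, first to retinal and then, irreversibly, to the acid. Cytosolic binding proteins carry it, cytochrome P450 enzymes of the CYP26 family destroy it, and the nuclear receptors RARα, RARβ and RARγ, paired with RXR partners, read it at response elements in DNA. In embryonic stem cells retinoic acid drives exit from self-renewal towards neural and endodermal fates, and in the embryo CYP26A1 keeps the epiblast and primitive streak low in retinoic acid. Cyp26a1 and Rarb are classical direct targets of the receptors, which makes their promoters the natural pair to look at.

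The promoter windows of these genes are shown because they were the only ones among the members' 14 windows that held the response element searched for. RefSeq promoter sequences (GRCm38.p6), 250 bases before to 50 after a start site, were matched for 8 of the 10 members, and Rdh10 and Crabp2 had none in the table. The windows were searched on both strands for the hexamer AGGTCA that such receptors bind, its variant AGTTCA as well as the related hexamer GGGTCA and its own variant GGTTCA, and for direct repeats of any 2 of these with 5 bases (DR5) or 2 bases (DR2) between them. Capitals mark the DR5 repeat. The Cyp26a1 window lies at chr19:37697558-37697857 on the plus strand and the Rarb window at chr14:16575427-16575726 on the minus strand, both printed 5′ to 3′ along the gene.
Cyp26a1: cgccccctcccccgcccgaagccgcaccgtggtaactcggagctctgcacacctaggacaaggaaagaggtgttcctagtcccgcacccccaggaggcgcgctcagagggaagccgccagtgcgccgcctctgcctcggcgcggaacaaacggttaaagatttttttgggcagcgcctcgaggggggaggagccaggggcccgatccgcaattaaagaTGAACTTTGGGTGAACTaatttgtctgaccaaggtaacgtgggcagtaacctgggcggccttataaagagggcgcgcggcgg
Rarb: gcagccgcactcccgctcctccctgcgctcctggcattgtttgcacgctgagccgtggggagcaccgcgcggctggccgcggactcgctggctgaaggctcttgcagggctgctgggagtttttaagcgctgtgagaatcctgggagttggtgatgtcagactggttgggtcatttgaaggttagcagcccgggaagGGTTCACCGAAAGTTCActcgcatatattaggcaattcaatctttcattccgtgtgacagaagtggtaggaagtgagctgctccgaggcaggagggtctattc

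The Cyp26a1 repeat lay 32 to 16 bases before the start site on the antisense strand, and the Rarb repeat 53 to 37 bases before it on the sense strand. Read along its own strand, each repeat has 17 bases, hexamers in capitals and spacer in lower case.
Cyp26a1: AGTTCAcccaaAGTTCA
Rarb: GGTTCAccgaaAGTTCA
They had 15 of 17 bases in common, and the differences from Cyp26a1 to Rarb, counted from 1 at the 5′ end, were A1G in the first hexamer and C9G in the spacer. A DR5 repeat of these hexamers was present in 32 of 32851 RefSeq promoter windows (0.0974%), and a single hexamer in 43.7% of them. No member window held a DR2 repeat, which 0.268% of all windows did. Hexamers without a repeat were found in windows of Rara and Rarg. A match is a run of letters and no evidence of receptor binding.

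Of the 10 genes, Cyp26a1 alone differed by at least 2-fold between the libraries, and it did so by a very wide margin. The receptor genes Rara and Rarg were 1.54-fold and 1.39-fold higher in knockdown cells, and the binding protein and retinal reductase genes Crabp2 and Dhrs3 were 1.53-fold and 1.57-fold lower. The enzymes of synthesis, Rdh10 and Aldh1a2, had ratios whose counting intervals included 1. Cyp26b1 and Rarb were close to absent in both libraries. A gene was called when its TMM-normalised count differed by at least 2-fold and the exact interval of the ratio excluded 1, and it entered when it reached 1 CPM, the count scaled to library size, in either library. Of the members 8 entered, 1 was called lower, none was called higher and 7 were not called. Over all deposited genes, 15850 entered, of which 9.48% were called lower and 4.68% higher.

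**Figure D1:**
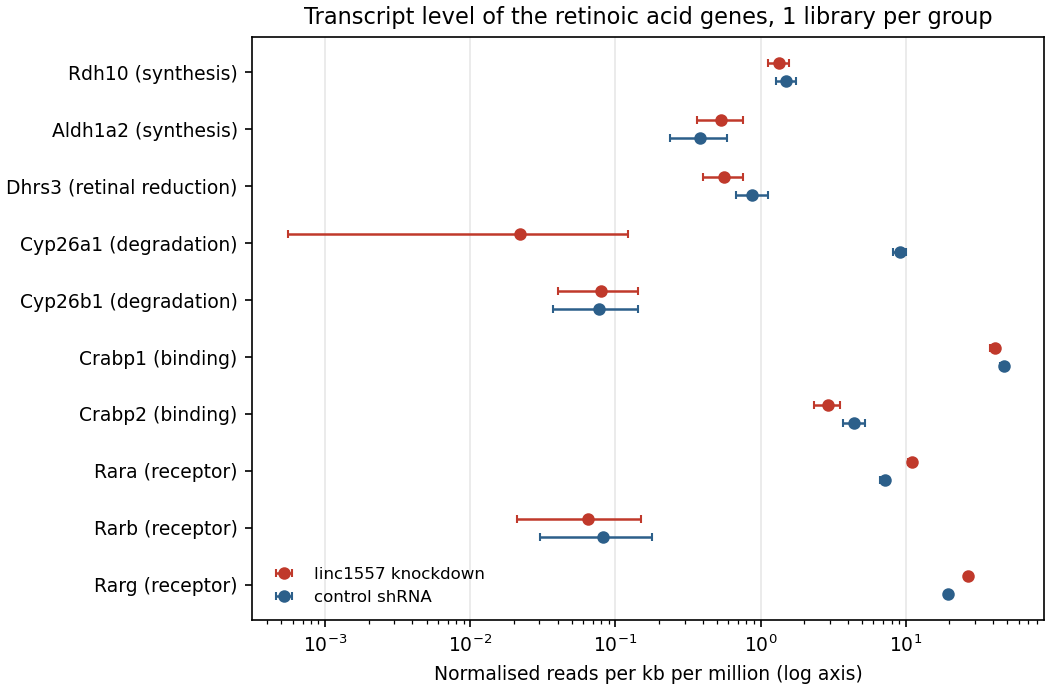
Level of each retinoic acid gene in normalised RPKM (log axis) in knockdown cells (red, upper point) and control cells (blue, lower point), with exact 95% Poisson intervals of the count. Cyp26a1 sits at 0.0220 in knockdown cells and 9.10 in control cells, while the points of every other gene lie within 1.6-fold of each other.

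Of the members, the retinoic acid degrading enzyme gene Cyp26a1 was the one called lower. Cyp26a1 encodes the CYP26 enzyme of the early embryo, which oxidises retinoic acid to inactive products. It had 1 count (0.0390 CPM) in knockdown cells and 389 counts (16.1 CPM) in control cells. The knockdown library was thus far below the control library, and the exact Poisson interval of its single count ran from 0.0253 to 5.57. Its level was 413-fold lower (73.7 to 16366), a log2 ratio of -8.69 (-14.0 to -6.20). At this scaling, with its count of 1 kept and counts of 0 set to 3, no other entered gene had a lower log2 ratio. With a prior count of 2 added to every count, Cyp26a1 was at -7.11 and rank 3 from the lowest, above Cer1 and Lhx1. In control cells Cyp26a1 stood above 54.2% of the entered genes in CPM.

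Cyp26b1, the family member that protects limb buds, hindbrain and gonads, had 11 counts (0.429 CPM) in knockdown cells and 10 counts (0.415 CPM) in control cells. The libraries were alike within counting error, with a log2 ratio of 0.05 (-1.32 to 1.44), an interval that still reaches 2-fold either way. Cyp26c1, the remaining family member, which lies beside Cyp26a1 on chromosome 19, had 4 counts in knockdown cells and 6 in control cells. Neither gene reached 1 CPM. Summed over the 3 genes, CYP26 transcripts had 16 counts (9.15 to 26.0) in knockdown cells and 405 counts (367 to 446) in control cells, 26.9-fold lower (16.4 to 47.5). Cyp26a1 gave 389 of these control counts, so the sum repeats its difference. Per length, the levels in knockdown cells were 0.0220 RPKM (normalised CPM per kilobase of gene length) for Cyp26a1, 0.0894 for Cyp26c1 and 0.0802 for Cyp26b1, and such small counts give no order among them. In control cells Cyp26a1 stood far above the others, at 9.10 RPKM against 0.142 for Cyp26c1 and 0.0775 for Cyp26b1.

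**Figure D2:**
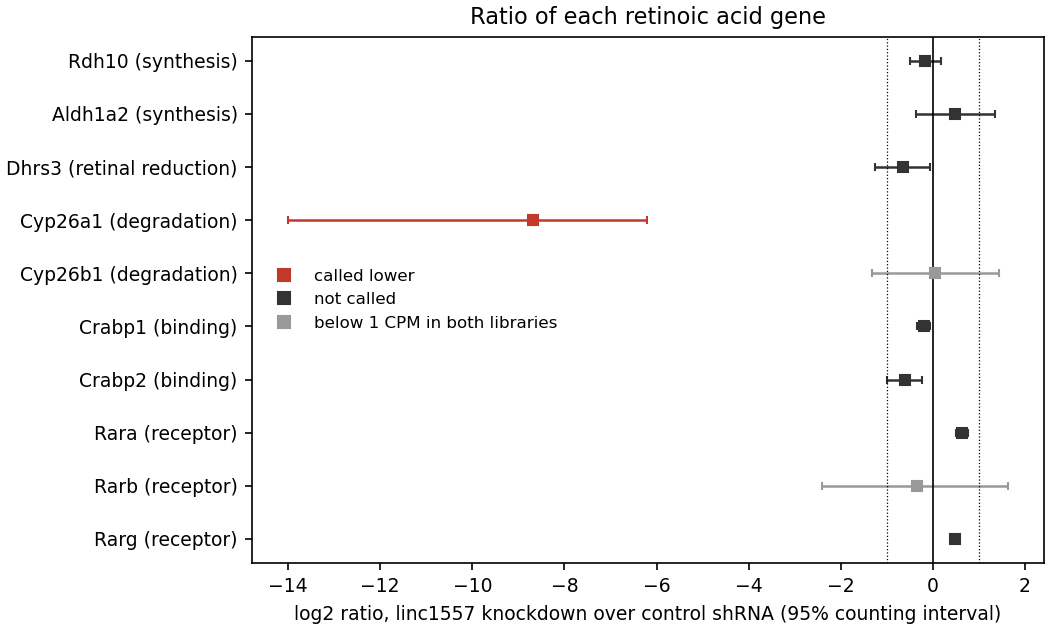
Log2 ratio of each retinoic acid gene, knockdown over control, with its exact 95% counting interval. Dotted lines mark 2-fold. Cyp26a1 lies at -8.69, and the other 9 points lie between -0.65 and 0.62, with the intervals of Cyp26b1 and Rarb, which had at most 11 counts per library, reaching past 2-fold on both sides.

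Synthesis showed no such gap. Rdh10 encodes the retinol dehydrogenase that makes retinal in the embryo. It had 143 counts (5.58 CPM) in knockdown cells and 151 counts (6.26 CPM) in control cells, close together, with a log2 ratio of -0.17 (-0.51 to 0.17). Aldh1a2 encodes the retinal dehydrogenase that makes most retinoic acid in the early embryo. It had 31 counts (1.21 CPM) in knockdown cells and 21 counts (0.871 CPM) in control cells. The log2 ratio was 0.47 (-0.37 to 1.35), and its interval held both 0 and 1, so at this depth neither equality nor a 2-fold rise could be told. Aldh1a3, another retinal dehydrogenase, had 64 counts in knockdown cells and 44 in control cells and a log2 ratio of 0.45 (-0.12 to 1.04). Aldh1a1 had 1 count in knockdown cells and 5 in control cells. Summed per length, the 3 dehydrogenases stood at 1.09 RPKM in knockdown cells and 0.881 RPKM in control cells. The 3 CYP26 genes stood at 0.192 RPKM in knockdown cells and 9.32 RPKM in control cells. The dehydrogenases thus exceeded the CYP26 genes in knockdown cells alone. Cyp26a1 made up 97.6% of the CYP26 sum in control cells, so this restates its difference and adds nothing on synthesis. By counts, the dehydrogenase sum had a log2 ratio of 0.37 (-0.09 to 0.83). Transcript levels carry no measure of enzyme activity or of retinoic acid itself.

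Dhrs3 encodes the retinaldehyde reductase that returns retinal to retinol, opposing RDH10, and retinoic acid induces it. It had 42 counts (1.64 CPM) in knockdown cells and 62 counts (2.57 CPM) in control cells. The log2 ratio was -0.65 (-1.25 to -0.06), an interval that leaves out 0 but a ratio short of 2-fold. The ratio of Rdh10 to Dhrs3, per length, was 2.40 (1.69 to 3.47) in knockdown cells and 1.71 (1.27 to 2.34) in control cells, which differ by a factor of 1.40 (0.888 to 2.20, Woolf interval). This comparison within each library does not depend on scaling, and its interval included 1.

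The cellular binding proteins held both high and middle ranks among the members. Crabp1 encodes a protein that holds retinoic acid in the cytosol. It had 844 counts (32.9 CPM) in knockdown cells and 915 counts (37.9 CPM) in control cells, a log2 ratio of -0.20 (-0.34 to -0.07). Crabp2, whose product delivers retinoic acid to the receptors, had 98 counts (3.83 CPM) in knockdown cells and 141 counts (5.85 CPM) in control cells. Its log2 ratio was -0.61 (-0.999 to -0.23), so that the interval reached almost to 2-fold. Both genes were lower in knockdown cells by more than counting error, and Crabp2 by more than Crabp1. The ratio of Crabp1 to Crabp2, per length, was 14.2 (11.5 to 17.7) in knockdown cells and 10.7 (8.95 to 12.9) in control cells, apart by a factor of 1.33 (1.01 to 1.75).

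Rarg and Rara were higher, short of 2-fold. Rarg encodes RARγ, the receptor on which much of the response of mouse F9 embryonal carcinoma cells depends. It had 2846 counts (111 CPM) in knockdown cells and 1927 counts (79.9 CPM) in control cells, a log2 ratio of 0.48 (0.39 to 0.56). Rara, for the broadly expressed RARα, had 1236 counts (48.2 CPM) in knockdown cells and 755 counts (31.3 CPM) in control cells, a log2 ratio of 0.62 (0.49 to 0.76). In both genes the knockdown library lay above the control library, by less than 2-fold and by far more than counting error. For context, 16.7% of all entered genes had a higher log2 ratio than Rarg and 11.3% a higher one than Rara. The 12 embryonic stem cell markers read below had log2 ratios from -0.94 to 0.85, with a median of 0.37. The part of cell mixture in the ratios of Rarg and Rara was not tested. Rarg over Rara, per length, was 2.45 (2.29 to 2.62) in knockdown cells and 2.71 (2.49 to 2.95) in control cells, a factor of 0.902 (0.810 to 1.0045). That interval only just included 1, so an unchanged balance and a small shift could not be told apart.

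Rarb, the receptor gene that retinoic acid induces through the repeat shown above, had 5 counts (0.195 CPM) in knockdown cells and 6 counts (0.249 CPM) in control cells. It was close to the floor of detection in both, with a log2 ratio of -0.35 (-2.40 to 1.63) whose interval spans several-fold either way. In the GENCODE annotation its exons share 1793 bases with Top2b on the opposite strand. Top2b had 3481 counts in knockdown cells and 1940 in control cells, and whether the counting used strand is not given in the sources used here. Rarb has a deposited length of 3034 bases against 5265 exonic bases in that annotation, so a shorter gene model was counted, and whether it held the shared bases is not known. Cyp26a1 (1773 against 1983 bases) and Rarg (4109 against 4261 bases) also have deposited lengths below their annotated ones, and share no exonic bases with another gene. Of the pair of promoters with a DR5 repeat, Cyp26a1 was thus at 1 count in knockdown cells and at 389 counts in control cells, and Rarb was near 0 in both.

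**Figure D3:**
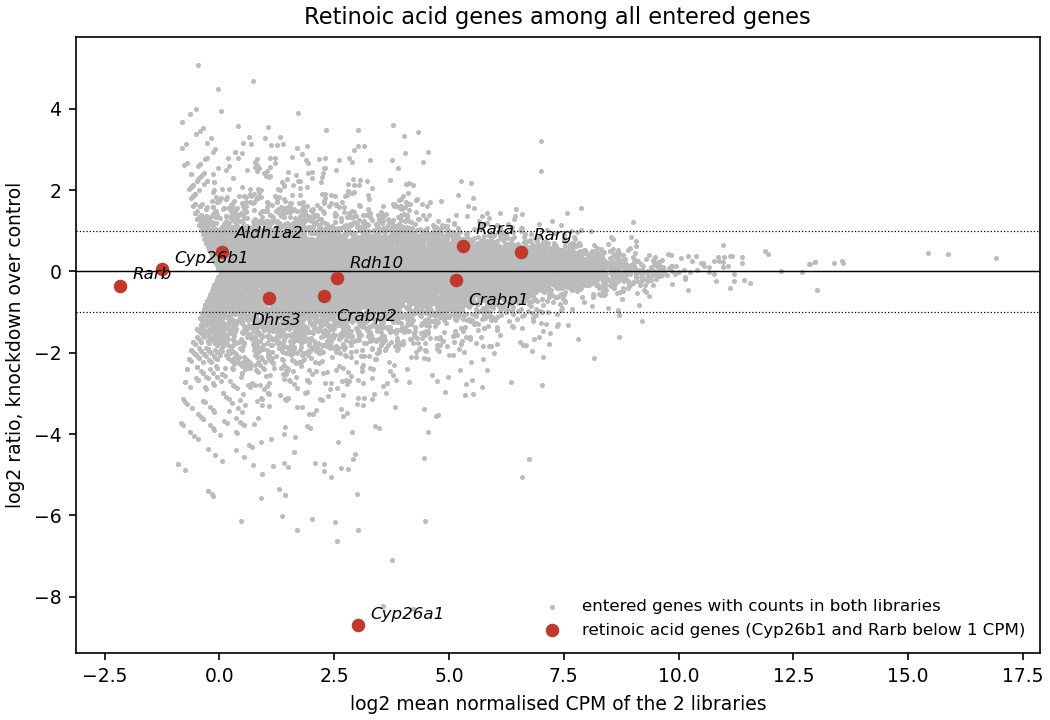
Log2 ratio, knockdown over control, against the log2 mean normalised CPM of the 2 libraries. Grey points are the entered genes with counts in both libraries, red points are the 10 retinoic acid genes. Cyp26a1, at -8.69, lies at the lower edge of all points, and the other members lie inside the dotted 2-fold lines.

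Ranked by RPKM, the members kept nearly the same order in both libraries apart from Cyp26a1. In the knockdown library the levels ran from Crabp1 (41.1) through Rarg (27.0), Rara (11.1), Crabp2 (2.89) and Rdh10 (1.34) to Dhrs3 (0.560), Aldh1a2 (0.534), Cyp26b1 (0.0802), Rarb (0.0643) and Cyp26a1 (0.0220). In the control library they ran from Crabp1 (47.3) through Rarg (19.4), Cyp26a1 (9.10), Rara (7.17), Crabp2 (4.42) and Rdh10 (1.51) to Dhrs3 (0.878), Aldh1a2 (0.385), Rarb (0.0820) and Cyp26b1 (0.0775). Intervals of neighbours in that order overlapped for Dhrs3 and Aldh1a2, Cyp26b1 and Rarb, and Rarb and Cyp26a1 in knockdown cells. In the control library they overlapped for Rarb and Cyp26b1. Cyp26a1 had rank 10 of the 10 members in knockdown cells and rank 3 in control cells.

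The genes were spread over 9 chromosomes, with Crabp1 and Aldh1a2 on the same one. In GRCm38, Cyp26a1 (ENSMUSG00000024987) lies on chromosome 19 from 37697798 to 37701536, Rarg (ENSMUSG00000001288) on chromosome 15 from 102234938 to 102257517 and Rara (ENSMUSG00000037992) on chromosome 11 from 98927818 to 98974942. Rarb (ENSMUSG00000017491) lies on chromosome 14 from 16430839 to 16819156, Cyp26b1 (ENSMUSG00000063415) on chromosome 6 from 84571414 to 84593908 and Dhrs3 (ENSMUSG00000066026) on chromosome 4 from 144892827 to 144928209. Rdh10 (ENSMUSG00000025921) lies on chromosome 1 from 16105774 to 16133734 and Crabp2 (ENSMUSG00000004885) on chromosome 3 from 87948666 to 87953376. Crabp1 (ENSMUSG00000032291) lies on chromosome 9 from 54764748 to 54773110 and Aldh1a2 (ENSMUSG00000013584) from 71215789 to 71296243. All 10 are protein-coding. Around Cyp26a1, 17 other genes with start sites within 1 Mb entered, of which 2 were called lower and 2 higher, with a median log2 ratio of 0.08. On chromosome 19 as a whole, 7.50% of the other entered genes were lower and 5.72% higher. The nearest entered gene upstream was the exocyst gene Exoc6, 147 kb away (log2 ratio -0.35), and the nearest downstream was Myof, 346 kb away (-0.52). Hhex, a homeobox gene of the anterior endoderm chosen after its value was seen, starts 263 kb upstream and had 34 counts in knockdown cells and 68 in control cells (-1.09, called lower, though not with the deeper library thinned). No gene of the window had a ratio near that of Cyp26a1. Apart from Rarb, no member shared exonic bases with another gene in the annotation.

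**Figure D4:**
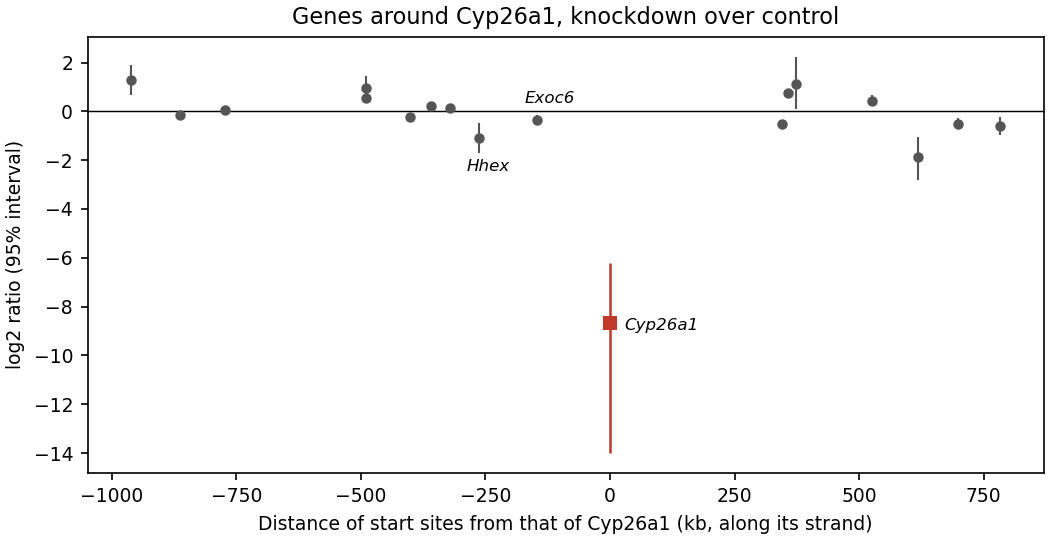
Log2 ratio, knockdown over control, of entered genes with start sites within 1 Mb of that of Cyp26a1, against distance in kilobases along its strand, with 95% counting intervals. The 17 neighbours lie between -1.88 and 1.27, and Cyp26a1 at -8.69.

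The genes whose pair of levels was nearest to that of Cyp26a1, by Euclidean distance between log2(CPM + 0.1) values in the 2 libraries, were Lhx1, Foxa2 and Fgf8. Lhx1, a LIM homeobox gene of the mesendoderm and node, had 2 counts in knockdown cells and 566 in control cells (distance 0.646). Foxa2, a forkhead factor of endoderm and node, had 3 counts in knockdown cells and 281 in control cells (0.794). Fgf8, a ligand of the primitive streak, had 4 counts in knockdown cells and 271 in control cells (1.02). With 2 libraries this likeness rests on 2 points per gene. Lhx1 and Fgf8 are themselves on the primitive streak and mesoderm marker list, and Foxa2 is on the primitive endoderm list. The calls on those lists are therefore not separate from the likeness. Of 10 entered primitive streak and mesoderm markers, 8 were called lower and 2 higher. The summed level of the 12 listed was 9.84 CPM in knockdown cells and 157 CPM in control cells. Evx1 among them did not enter, with 0 counts in knockdown cells and 7 in control cells. Of 7 entered primitive endoderm markers, 5 were called lower and 1 higher, with sums of 28.0 CPM in knockdown cells and 69.8 CPM in control cells. Ttr was at 0 in both, and Afp, with 0 counts in knockdown cells and 1 in control cells, did not enter either. Of 28 feeder fibroblast markers, 17 were called lower, none was called higher and none was at 0. Their sums were 2034 CPM in knockdown cells and 3490 CPM in control cells. Without 5 of them that other cell types also use, Fn1 and Vim among these, the sums were 466 CPM in knockdown cells and 1401 CPM in control cells. Embryonic stem cell markers such as Pou5f1 and Sox2 were present in both libraries, and none of 12 was called, with sums of 3356 CPM in knockdown cells and 2617 CPM in control cells. Their log2 ratios ran from -0.94 (Lin28a) to 0.85 (Tdgf1), with a median of 0.37. In bulk RNA fewer cells of a type and less RNA per cell cannot be told apart, and the part of such cells in the level of Cyp26a1 was not tested.

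The rest of the retinoid pathway was read from 5 lists of 68 other genes, of which 39 entered, 5 were called lower and none higher. That is 12.8% lower, beside 9.48% of all entered genes, and the median log2 ratio of -0.06 compares with 0.02 over all of them. Genes of retinol uptake, transport and storage had 2 of 3 entered members lower. Stra6l, a receptor for retinol binding protein, had 14 counts in knockdown cells and 42 in control cells and was 3.19-fold lower (1.71 to 6.32). The related retinol transporter gene Stra6 did not reach 1 CPM, with 1 count in knockdown cells and 15 in control cells.

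Among 10 entered genes of retinol and retinal oxidation and reduction, Dhrs4, a carbonyl reductase gene, was called, with 93 counts in knockdown cells and 181 in control cells, 2.07-fold lower (1.60 to 2.68). It lies on chromosome 14, where the median log2 ratio of 537 entered genes was -0.43 and 19.2% were called lower, and the part of that shift in its call was not tested. The list's median was 0.16. Of the 2 entered genes for degradation and binding beside the members, Fabp5 was lower. Its product carries retinoic acid and fatty acids, and it had 340 counts in knockdown cells and 675 in control cells, 2.11-fold lower (1.85 to 2.41), a value that reads shared with the like gene Fabp5l2 could affect.

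Retinoid X receptors and the receptors that share them showed no call among 6 entered genes, with a median of -0.08, although Ppard was called lower with total counts and with the deeper library thinned. Rxrb, the most abundant RXR gene per length, had 579 counts in knockdown cells and 577 in control cells, a log2 ratio of -0.08 (-0.25 to 0.09). Nr1h2, for the oxysterol receptor LXRβ, had 1098 counts in knockdown cells and 946 in control cells (0.13). Summed over Rxra, Rxrb and Rxrg, the partners had 868 counts in knockdown cells and 973 in control cells, a log2 ratio of -0.25 (-0.39 to -0.12). The lower sum lay mainly with Rxra, named after its value was seen, which had 273 counts in knockdown cells and 374 in control cells, a log2 ratio of -0.54 (-0.77 to -0.31). The RAR genes had 4087 counts in knockdown cells and 2688 in control cells, a log2 ratio of 0.52 (0.45 to 0.59). Within each library, Rarg over Rxrb per length was 4.42 (4.04 to 4.85) in knockdown cells and 3.01 (2.74 to 3.30) in control cells, a factor of 1.47 (1.29 to 1.67) that scaling cannot change. Of 18 entered coregulators, 17 were not called, with a median of -0.05. The exception was Nr2f2, an orphan receptor also known as COUP-TFII that retinoic acid can induce, at 9 counts in knockdown cells and 37 in control cells, 4.37-fold lower (2.07 to 10.3).

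**Figure D5:**
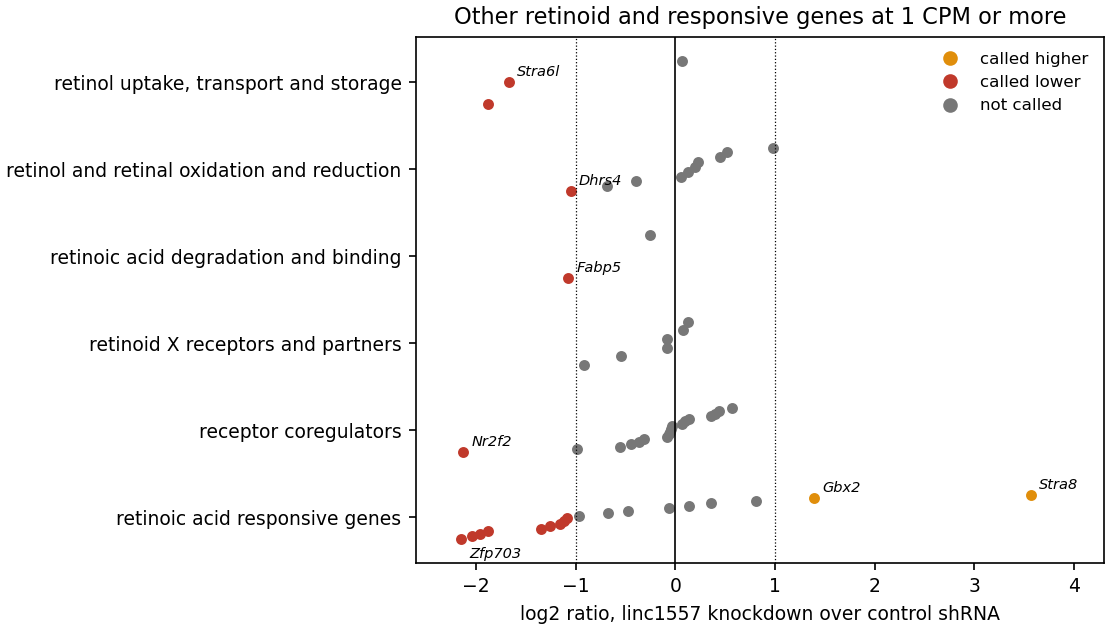
Log2 ratio, knockdown over control, of the entered genes of 5 retinoid lists and of the retinoic acid responsive list, 1 point per gene, with called genes coloured and dotted lines at 2-fold. Calls lie mostly on the lower side, and Stra8 (3.57) and Gbx2 (1.39) on the higher side.

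Genes reported to respond to retinoic acid, other than the members, went both ways. Of 28 listed, 18 entered, 9 were called lower (50%), 2 higher and 7 neither, at a median of -1.02, beside 9.48% lower, 4.68% higher and a median of 0.02 over all entered genes. Stra8, the gene by which retinoic acid opens meiosis in germ cells, had 63 counts in knockdown cells and 5 in control cells and was 11.9-fold higher (4.82 to 37.8). The other gene on the higher side was Gbx2, a homeobox factor of the hindbrain boundary, with 873 counts in knockdown cells and 313 in control cells, 2.63-fold higher (2.30 to 3.00). On the lower side, Zfp703 had 18 counts in knockdown cells and 75 in control cells, 4.43-fold lower (2.62 to 7.87). Col4a1, a basement membrane collagen gene, had 1193 counts in knockdown cells and 2859 in control cells, 2.55-fold lower (2.38 to 2.73). Genes such as Stra6, Lrat and Nrip1 are on this list and on 1 of the lists above.

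Several responsive genes were chosen for mention after their values were seen. Hoxb2 and Hoxb3, of the retinoic acid responsive end of the Hoxb cluster, were called lower, Hoxb2 with 7 counts in knockdown cells and 27 in control cells and Hoxb3 with 9 in knockdown cells and 33 in control cells. Cdx1, a caudal homeobox gene, had 43 counts in knockdown cells and 23 in control cells, a log2 ratio of 0.82 (0.05 to 1.61). Tgm2, for tissue transglutaminase, had 214 counts in knockdown cells and 210 in control cells, a log2 ratio of -0.06 (-0.34 to 0.22). Responsive genes thus did not share 1 direction. The list also holds Dab2 and Pdgfra, markers of primitive endoderm. Most of the entered feeder and endoderm markers given above were called lower in knockdown cells, though 1 endoderm marker was called higher. The part of such cells in this list was not tested.

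Outside the members, 13 genes of the table had a DR5 repeat in a promoter window, and 4 of them entered. None of the 4 was called, beside 9.60% lower and 4.44% higher among 10574 entered genes with a promoter window, so that no call among 4 genes is no result about them. Their log2 ratios ran from -0.56 to 0.55. This small set was chosen after the values of Cyp26a1 were known.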

How the data were processed

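Whole-number read counts per gene for 2 libraries, with a gene length column, were used as deposited. The submitters' processing notes list HISAT2 and featureCounts beside Trim Galore and DESeq, and the builds GRCm38 and mm10. Versions, annotation, strand setting and the handling of shared reads: not given in the sources used here. GENCODE M21 symbols matched 46488 of 46983 identifiers. TMM factors (0.960 knockdown, 1.04 control) came from edgeR 4.0.16 in R 4.3.3, and DESeq2 1.42.0 size factors were an alternative. Ratios and exact Clopper-Pearson and Poisson 95% intervals were computed in Python 3.11.15 with scipy 1.17.1, over the whole table. A count of 0 was set to 3, and no ratio was given where both counts were at most 3. Alternatives changed the scaling (total counts, DESeq2, TMM on nuclear protein-coding genes), the filter (none, or 5 CPM), zero counts (2 added to both libraries), depth (thinning) and the threshold (1.5-fold, 4-fold). The members, the gene lists and the rule for named genes (every member, up to 4 called genes or 2 abundant ones per list, 3 genes nearest to each called member, nearest neighbours) were chosen with earlier results of these data known. Some listed genes are counted but not reported by name here. Median counts of entered genes were 336 in knockdown cells and 325 in control cells.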

Additional observations from a re-analysis of the deposited data

How the results depend on the processing

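Counts of called genes among the members, the retinoid and responsive lists and all genes were recomputed under 9 other settings, and the members' log2 ratios under 7. Marker lists, the windows around Cyp26a1, Rarg and Rara, and family sums were added after seeing the data, and likeness was not recomputed. Cyp26a1 was called lower in all 9 and no other member was called at 2-fold or 4-fold. At a 1.5-fold threshold, 3 members were lower (Cyp26a1, Dhrs3 and Crabp2) and 1 was higher (Rara), beside 2598 lower (16.4%) and 1817 higher (11.5%) of all entered genes. The log2 ratio of Cyp26a1 ran from -8.81 to -7.11. Total-count scaling shifted the median of all genes by -0.12 and gave Rarg a log2 ratio of 0.36, and the other members stayed within their counting intervals under the 7 settings of scaling, filter, prior count and thinning. Of all entered genes 728 were lower and 330 higher with a filter at 5 CPM, and 389 lower and 152 higher at 4-fold. Other retinoid genes called lower numbered 8 with total counts, without a filter and at 1.5-fold, 7 with thinning, 3 at 5 CPM and 1 at 4-fold. Ppard and Crebbp joined them with total counts, thinning and 1.5-fold. Those called higher numbered 1 with DESeq2 size factors, nuclear protein-coding genes alone, thinning and 1.5-fold (Dhrs7), and 1 without a filter (Ppara). Responsive genes called lower numbered 4 at 5 CPM and 2 at 4-fold, with 1 higher in each. The filters and thresholds change the count by construction. The 2 streak markers called higher were not called with total counts, where 8 remained lower and 1 embryonic stem cell marker was called lower. The RAR sum kept its direction, from 0.40 to 0.56, and the RXR sum from -0.37 to -0.21. Without genes also known from other tissues, 15 of 23 feeder markers were lower. No paired analysis was possible because each group has 1 library. Genes with few counts, such as Cyp26b1 and Rarb, cannot show a 2-fold difference at this depth.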

Other observations

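The surroundings of the other members were also read, as values without a test. Within 1 Mb of the Rarg start site, 40 other genes entered, of which 6 were called higher and 7 lower, with a median log2 ratio of 0.14, beside 5.89% higher and 9.88% lower on chromosome 15. Around Rara 30 entered, with 2 higher, 3 lower and a median of 0.09, beside 5.78% higher and 6.49% lower on chromosome 11. The nearest entered gene upstream, the replication gene Cdc6, had 1747 counts in knockdown cells and 1080 in control cells (log2 ratio 0.61). Rara itself was at 0.62, and the nearest downstream, Top2a, had 19829 counts in knockdown cells and 17914 in control cells (0.06). Around Rarb 3 genes entered, none was called and their median was 0.76, on a chromosome 14 whose 537 entered genes had a median of -0.43. Downstream of Crabp2, the nearest entered gene was Nes, 22.4 kb away, the nestin gene of neural progenitors. Nes was called lower, with 898 counts in knockdown cells and 1803 in control cells (log2 ratio -1.09). The nearest entered gene upstream of Crabp2, Rrnad1, had 343 counts in knockdown cells and 276 in control cells (0.23). Nes does not stand for neural genes in general. Of 5 entered genes on the neural marker list, Nes among them, 2 were called lower, 1 higher and 2 neither.

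The binding proteins for retinoic acid differed unequally from Fabp5. Crabp1 over Fabp5, per length, was 11.04 (9.72 to 12.6) in knockdown cells and 6.03 (5.45 to 6.67) in control cells, and Crabp2 over Fabp5 was 0.778 (0.615 to 0.976) in knockdown cells and 0.564 (0.467 to 0.677) in control cells. Ppard, the receptor that FABP5 is reported to supply, had 127 counts in knockdown cells and 225 in control cells, a log2 ratio of -0.91 (-1.24 to -0.59), short of the call here, and called lower with total counts and with thinning.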
